A study of Homo sapiens with 12 samples.

Results

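The genes described here are 162 long intergenic non-coding RNAs whose symbol is LINC followed by a number and which were expressed in the cell line MDA-MB-468, from a triple-negative breast cancer of basal type. They were chosen from 1869 such rows among the 58735 rows of the authors' table of normalised counts (counts divided by a factor for each library), as those with a mean of at least 30 in at least 1 of 4 groups. Each group had 3 libraries of poly(A) RNA. COMBO cells received 5 µM tazemetostat, an inhibitor of the histone methyltransferase EZH2, with 5 µM ipatasertib, an inhibitor of the kinase AKT, for 24 h in medium with 2% FBS on 6 cm plates, and cells of that experiment had been in tazemetostat or DMSO since 5 days before. DOC8 and DOC24 cells were exposed to 10 nM docetaxel, which stabilises microtubules, for 8 h and 24 h on 10 cm plates. DMSO cells were the vehicle control, and the labels state neither their hours, their serum nor their plate size. The vehicle is described only for the targeted treatment, there was no vehicle group labelled for 8 h, and neither inhibitor was given alone. Serum, plate and time therefore cannot be told apart from the drugs in these comparisons. All groups come from 1 cell line, and the labels do not say whether libraries A, B and C of a group were separate cultures, so p-values here rest on a spread between libraries that could be purely technical.

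LINC symbols are given to long RNAs that do not encode a known protein and that were annotated away from coding genes. Many are spliced and polyadenylated like mRNAs, few have a known function, and those with one act through bound proteins, on the transcription of a neighbouring gene, or through a short peptide found later. Gene regions that Polycomb holds silent can contain such RNAs, and EZH2 is the catalytic subunit of that complex. Transcripts first named LINC and later renamed, such as NORAD or CYTOR, are not among the 162. Some are given near the end, in a mixed list.

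Totals lay between 29820617 and 45807059 counts per library, of which the 162 LINC RNAs held 0.101 to 0.105% in COMBO, 0.0823 to 0.0827% in DOC8, 0.0965 to 0.1% in DOC24 and 0.0986 to 0.1% in DMSO. Mitochondrial transcripts held 7.71 to 9.3% of counts in COMBO, 8.2 to 9.0% in DOC8, 5.0 to 7.53% in DOC24 and 4.0 to 4.48% in DMSO, and the part of this shift in the results below was not tested. The epithelial marker EPCAM lay between 10300 and 15900 normalised counts and EGFR between 84490 and 178300. Of the 3 receptor genes by which the label triple-negative is defined, PGR lay between 0 and 1.206, while RNA of ESR1, between 25.04 and 71.62, and of ERBB2, between 2358 and 3430, was detected in every library. VIM, a mesenchymal marker, had means of 5410 in COMBO, 1681 in DOC8, 2255 in DOC24 and 1483 in DMSO. PTPRC, CD3E and CD68 did not exceed 7.62 in any library, and the fibroblast marker DCN was at 0 in every group but COMBO, where its mean was 10.06. The endothelial marker CDH5 had means of 81.57 in COMBO, 14.37 in DOC8, 26.89 in DOC24 and 21.77 in DMSO, PECAM1 and VWF stayed between 1.01 and 15.63, PDGFRB between 1.206 and 16.08 and COL1A1 between 413.7 and 749.6. The part of these markers in the results was not tested. In bulk RNA, fewer cells that express a gene and less of its RNA per cell cannot be told apart.

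Of the 162 LINC RNAs, 160 were matched to GENCODE release 29 on GRCh38, the same assembly as hg38. The annotation called 118 of them lincRNA, 17 processed transcript, 8 antisense and 8 transcribed unprocessed pseudogene, and 1, LINC00672, protein coding. They lay on 23 chromosomes, with 22 on chromosome 1, 11 on chromosome 7 and 10 each on chromosomes 3 and 19. The exons of a gene joined together were 375 to 27605 bases long with a median of 2820. The median distance from the start of a LINC gene to the nearest coding start was 48156 bases. For 16 genes that start was within 1000 bases, and 10 of these ran divergently from it. Exons of 56 overlapped those of another annotated gene. Whether the libraries kept strand is not stated, so reads of such pairs may have been counted together.

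The promoters of 5 genes are shown here because they stand for different patterns described below: 3 abundant genes on chromosome 19 that were lower in COMBO, 1 gene seen almost only in COMBO, and 1 abundant gene that was higher in COMBO. Each runs from 250 bases before to 50 bases after the RefSeq start (GRCh38.p14), 5′ to 3′ on the gene's strand, with CpG dinucleotides in capitals. LINC00665 is at chr19:36331669-36331968 on the minus strand, LINC00662 at chr19:27793891-27794190 on the minus strand, LINC01224 at chr19:23416025-23416324 on the minus strand, LINC01088 at chr4:78971498-78971797 on the plus strand and LINC00511 at chr17:72640423-72640722 on the minus strand.
LINC00665: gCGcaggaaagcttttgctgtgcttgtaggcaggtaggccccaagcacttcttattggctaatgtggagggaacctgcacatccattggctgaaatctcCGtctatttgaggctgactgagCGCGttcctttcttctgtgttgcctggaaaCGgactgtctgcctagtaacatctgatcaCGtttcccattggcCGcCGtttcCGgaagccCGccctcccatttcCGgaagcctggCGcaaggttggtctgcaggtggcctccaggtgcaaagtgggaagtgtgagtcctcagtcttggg
LINC00662: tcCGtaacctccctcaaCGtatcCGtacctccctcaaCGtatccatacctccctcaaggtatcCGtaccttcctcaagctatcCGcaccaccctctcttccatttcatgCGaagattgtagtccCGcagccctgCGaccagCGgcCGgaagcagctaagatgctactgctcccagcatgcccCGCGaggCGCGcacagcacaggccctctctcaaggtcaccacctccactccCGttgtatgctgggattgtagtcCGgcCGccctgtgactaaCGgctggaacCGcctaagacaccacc
LINC01224: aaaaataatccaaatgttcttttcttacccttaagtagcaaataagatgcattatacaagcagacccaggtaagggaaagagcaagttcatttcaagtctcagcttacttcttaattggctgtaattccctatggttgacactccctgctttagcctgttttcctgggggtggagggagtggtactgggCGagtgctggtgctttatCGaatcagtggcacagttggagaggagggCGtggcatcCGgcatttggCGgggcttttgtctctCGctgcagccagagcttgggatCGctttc
LINC01088: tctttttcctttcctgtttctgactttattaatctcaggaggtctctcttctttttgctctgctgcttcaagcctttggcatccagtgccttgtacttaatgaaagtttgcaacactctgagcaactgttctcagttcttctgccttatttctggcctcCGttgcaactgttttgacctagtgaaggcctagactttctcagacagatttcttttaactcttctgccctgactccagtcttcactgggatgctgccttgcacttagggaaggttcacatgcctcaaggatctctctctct
LINC00511: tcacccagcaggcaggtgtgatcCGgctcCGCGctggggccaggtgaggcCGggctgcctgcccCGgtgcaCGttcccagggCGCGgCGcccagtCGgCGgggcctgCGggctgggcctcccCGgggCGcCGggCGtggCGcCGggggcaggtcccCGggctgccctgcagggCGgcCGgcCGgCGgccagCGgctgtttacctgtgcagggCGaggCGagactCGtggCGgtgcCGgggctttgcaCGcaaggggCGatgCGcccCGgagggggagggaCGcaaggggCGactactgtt
The number of CpG dinucleotides was 12 for LINC00665, 20 for LINC00662, 7 for LINC01224, 1 for LINC01088 and 35 for LINC00511. The GC content was 55.3% for LINC00665, 59.3% for LINC00662, 48.0% for LINC01224, 44.7% for LINC01088 and 78.0% for LINC00511. Of these 5 windows, that of LINC01088 had the fewest CpG and that of LINC00511 the most, and both genes were higher in COMBO. Other genes higher in COMBO lay at both ends, such as LINC01612 with 1 CpG and LINC01145 with 42. A link between CpG and the difference in COMBO was not tested.

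Promoter windows were found for 93 of the 162 genes by symbol and chromosome. Their median was 12 CpG dinucleotides and 59.0% GC, against 14 and 58.7% over all 35116 windows of the table. The 40 windows of genes higher in COMBO than in DMSO had medians of 12 CpG and 57.8% GC, and the 10 windows of genes lower in COMBO had 11 CpG and 60.2% GC. Both strands were searched for 3 motifs. The FOXO motif GTAAACA, of the factors that AKT keeps out of the nucleus, was in 5 of 93 windows, or 5.38%, against 3.42% of all windows. The aryl hydrocarbon receptor motif TTGCGTG was in 2 of 93, or 2.15%, against 1.16%, and the AP-1 motif TGANTCA in 5 of 93, or 5.38%, against 7.71%. LINC00511 held the reverse complement of the first from base -55 and of the second from base -5 relative to the start. A match describes the letters of the window and is not a bound site.

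The levels of the LINC RNAs were unequal. The median of their means over 12 libraries was 61.6 normalised counts, the lowest was 8.944 and the highest 3489, and 8 genes were at 1000 or more. The 3 most abundant held 23.77% of the summed signal. Per kilobase of exon the order changed: LINC01133 had 617.6 normalised counts per kilobase, LINC00665 484.5, LINC01578 397.8, LINC02001 322.9, LINC01224 316.7 and LINC01278 315.5. The spread between libraries of a group followed the level. The median coefficient of variation was 5.37 to 8.03% per group for the 53 genes at a mean of 100 or more and 14.5 to 19.3% for the 109 below it.

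The threshold of 30 was reached in all 4 groups by 100 genes, in 3 groups by 17, in 2 by 9 and in 1 by 36. Of these 36, 28 reached it only in COMBO, 6 only in DOC24 and 2 only in DMSO. The highest of the 4 means was in COMBO for 93 genes, in DOC8 for 16, in DOC24 for 27 and in DMSO for 26. These counts by group were not made over all genes, so whether they are particular to LINC RNAs was not tested. Over all 17780 genes tested as described below, 12.1% were at least 2-fold higher in COMBO than in DMSO and 2.7% at least 2-fold lower. The genes just inside the threshold were LINC02154 and LINC02163, with means of 30.8 and 30.9 in COMBO, and LINC01004, with 30.9 in DOC24. Just outside were LINC00882 with 29.8 and LINC00471 with 29.1 in COMBO, and LINC00871 with 29.2 in DMSO. A gene that passed in a single group differs from the other groups by the way it was chosen, so those 36 are described by their values, with no p; a counting interval given for some of them describes the counts only. Genes that passed in 2 or 3 groups were also chosen in part through the groups where they were high, which bears on the p-values given below for LINC01447, LINC02167, LINC00324, LINC01226 and LINC01521. The 100 genes that passed in all groups are counted separately below.

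Fold changes below are log2 values from edgeR's quasi-likelihood fit of the raw counts with TMM scaling, given with their SE, and a gene is said to have risen or fallen where its p, adjusted over all genes tested, is below 0.05. The most abundant LINC RNA, LINC00665, fell in COMBO. It has been described in triple-negative breast cancer as the source of a micropeptide. It had 1995, 2014 and 2013 normalised counts in COMBO, 4312, 3917 and 4324 in DOC8, 3922, 4124 and 4217 in DOC24, and 3656, 3696 and 3682 in DMSO. Every COMBO library was below every other library. In COMBO the log2 fold change was -0.87 ± 0.05 (SE) against DMSO (edgeR adjusted p = 5.2e-13). It was 0.18 ± 0.05 in DOC8 (adjusted p = 0.00364) and 0.16 ± 0.05 in DOC24 (adjusted p = 0.00953), each against DMSO. With library totals as scaling the DOC8 value was 0.02 (adjusted p = 0.721), and without DOC24 replicate C the DOC24 value was 0.13 (adjusted p = 0.0609).

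LINC00662 (chr19:27684580-27793940) fell further. It had 564.7, 619.4 and 561.5 normalised counts in COMBO, 1347, 1363 and 1434 in DOC8, 1319, 1473 and 1366 in DOC24, and 1377, 1426 and 1479 in DMSO. COMBO was below the 9 other libraries, and both docetaxel groups overlapped DMSO. In COMBO the log2 fold change against DMSO was -1.29 ± 0.06 (edgeR adjusted p = 3.26e-14), against -0.05 ± 0.06 in DOC8 and -0.04 ± 0.06 in DOC24, neither past the threshold (adjusted p = 0.461 and 0.639). Its exons overlap those of 2 genes with clone names.

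LINC01224, on the same chromosome (chr19:23399233-23416075), had 664.7, 733.7 and 718.6 normalised counts in COMBO, 1400, 1313 and 1306 in DOC8, 951.8, 1034 and 969.5 in DOC24, and 1168, 1183 and 1085 in DMSO. The 4 groups did not overlap, with COMBO lowest and DOC8 highest. The log2 fold changes against DMSO were -0.70 ± 0.06 in COMBO (edgeR adjusted p = 1.3e-09), 0.22 ± 0.06 in DOC8 (0.00397) and -0.21 ± 0.06 in DOC24 (0.00581). The DOC8 value was 0.06 with library totals as scaling (adjusted p = 0.427). Of the 10 LINC RNAs on chromosome 19, looked at together after these values were seen, 4 were lower in COMBO, the fourth being LINC01534. LINC00663, LINC01842 and LINC01836 were higher, and LINC00664, LINC01002 and LINC01535 did not pass the test. Of all genes 31.4% were called in each direction, and of the 162 LINC RNAs 44.4% were higher and 14.8% lower. The 10 genes were not tested against either background.

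LINC00511, which has been reported to bind EZH2 in lung and breast cancer cells, rose in COMBO. It had 1457, 1403 and 1517 normalised counts in COMBO, 1319, 1266 and 1265 in DOC8, 1065, 1247 and 1128 in DOC24, and 1156, 1092 and 1050 in DMSO. COMBO was above all other libraries and DOC24 overlapped DMSO. Against DMSO the log2 fold change was 0.41 ± 0.06 in COMBO (edgeR adjusted p = 3.88e-06), 0.21 ± 0.06 in DOC8 (0.00603) and 0.06 ± 0.06 in DOC24 (0.432). With library totals as scaling the DOC8 value was 0.06 (adjusted p = 0.477).

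LINC01578 is also known as CHASERR and represses the chromatin remodeller gene CHD2 downstream of it. It had 2253, 2114 and 2138 normalised counts in COMBO, 2126, 1839 and 2021 in DOC8, 2394, 2658 and 2495 in DOC24, and 1897, 1899 and 1915 in DMSO. DOC24 was highest and did not overlap the other groups. Against DMSO the log2 fold change was 0.19 ± 0.06 in COMBO (edgeR adjusted p = 0.00486), 0.06 ± 0.06 in DOC8 (0.406) and 0.41 ± 0.06 in DOC24 (3.31e-06). CHD2 had log2 fold changes of 0.34 ± 0.07 in COMBO (0.000215), 0.12 ± 0.07 in DOC8 (0.181) and 0.10 ± 0.07 in DOC24 (0.255), so it passed the test in COMBO only, and in the same direction as its neighbour.

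LINC01133, which has been described to bind the splicing factor SRSF6, and LINC01278 shared a low level at 8 h of docetaxel. LINC01133 had 2232, 2028 and 1902 normalised counts in COMBO, 1579, 1293 and 1335 in DOC8, 2320, 2314 and 2615 in DOC24, and 1974, 1896 and 1896 in DMSO. DOC8 was lowest and DOC24 highest, without overlap with DMSO. The log2 fold change against DMSO was 0.10 ± 0.07 in COMBO (edgeR adjusted p = 0.233), -0.46 ± 0.07 in DOC8 (1.05e-05) and 0.34 ± 0.07 in DOC24 (0.000369). LINC01278 (chrX:63343227-63561071) had 2048, 2170 and 2225 normalised counts in COMBO, 1622, 1681 and 1677 in DOC8, 1972, 2091 and 2162 in DOC24, and 2116, 2213 and 2175 in DMSO. The other 3 groups overlapped, and DOC8 lay below them all, with a log2 fold change of -0.39 ± 0.05 against DMSO (edgeR adjusted p = 1.8e-06).

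LINC01184 stayed closer to DMSO than its neighbour SLC12A2, described further on. It had 1484, 1279 and 1411 normalised counts in COMBO, 1218, 1109 and 1194 in DOC8, 1370, 1518 and 1490 in DOC24, and 1286, 1332 and 1343 in DMSO. Its log2 fold changes against DMSO of -0.18 ± 0.06 in DOC8 (edgeR adjusted p = 0.02) and 0.15 ± 0.06 in DOC24 (0.0471) passed the threshold narrowly. Each lost the call when most single libraries were left out, with adjusted p as high as 0.12 in DOC8 without DMSO replicate C and 0.164 in DOC24 without DOC24 replicate B.

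**Figure D1:**
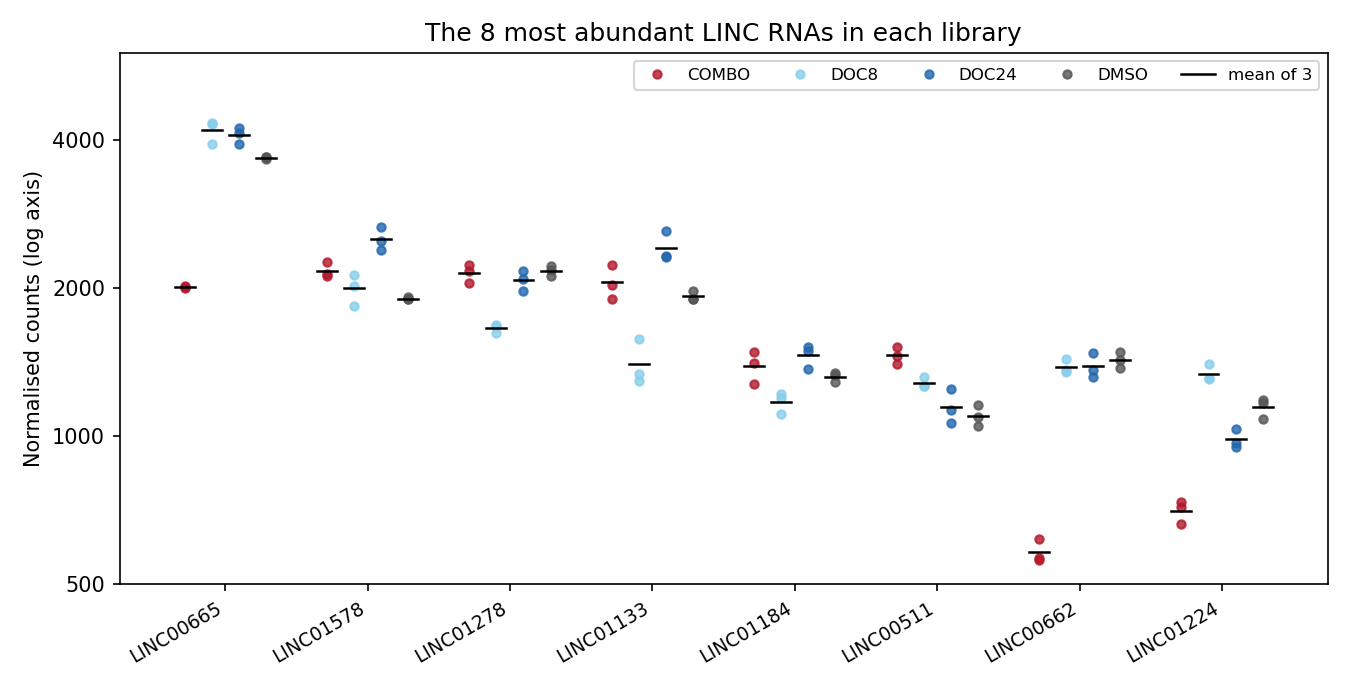
Normalised counts (log axis) of the 8 most abundant LINC RNAs in each of 12 libraries, with 1 point per library and a bar at the mean of 3 libraries. LINC00665, LINC00662 and LINC01224 are lowest in COMBO, while LINC01133 and LINC01278 are lowest in DOC8.

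In COMBO against DMSO, 72 of the 162 LINC RNAs were higher and 24 lower at an edgeR adjusted p below 0.05, and 66 did not pass. Over all 17780 genes tested, 31.4% were higher and 31.4% lower. The median log2 fold change was 0.31 for the LINC RNAs and 0.01 for all genes. Part of this count follows from the choice of genes by level, so the 100 LINC RNAs at 30 or more in every group were also counted alone. Of these, 37 were higher and 17 lower, with a median of 0.14. Of the 13380 genes of any kind at 30 or more in every group, 28.8% were higher and 39.3% lower, with a median of -0.06. A difference of at least 2-fold was seen for 40 LINC RNAs that were higher and 9 that were lower, against 12.1% and 2.7% of all genes. Among the 100 it was seen for 11 that were higher and 4 that were lower, against 5.06% and 1.97% of the 13380 genes, so most of the 40 were genes that did not reach 30 in every group.

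**Figure D2:**
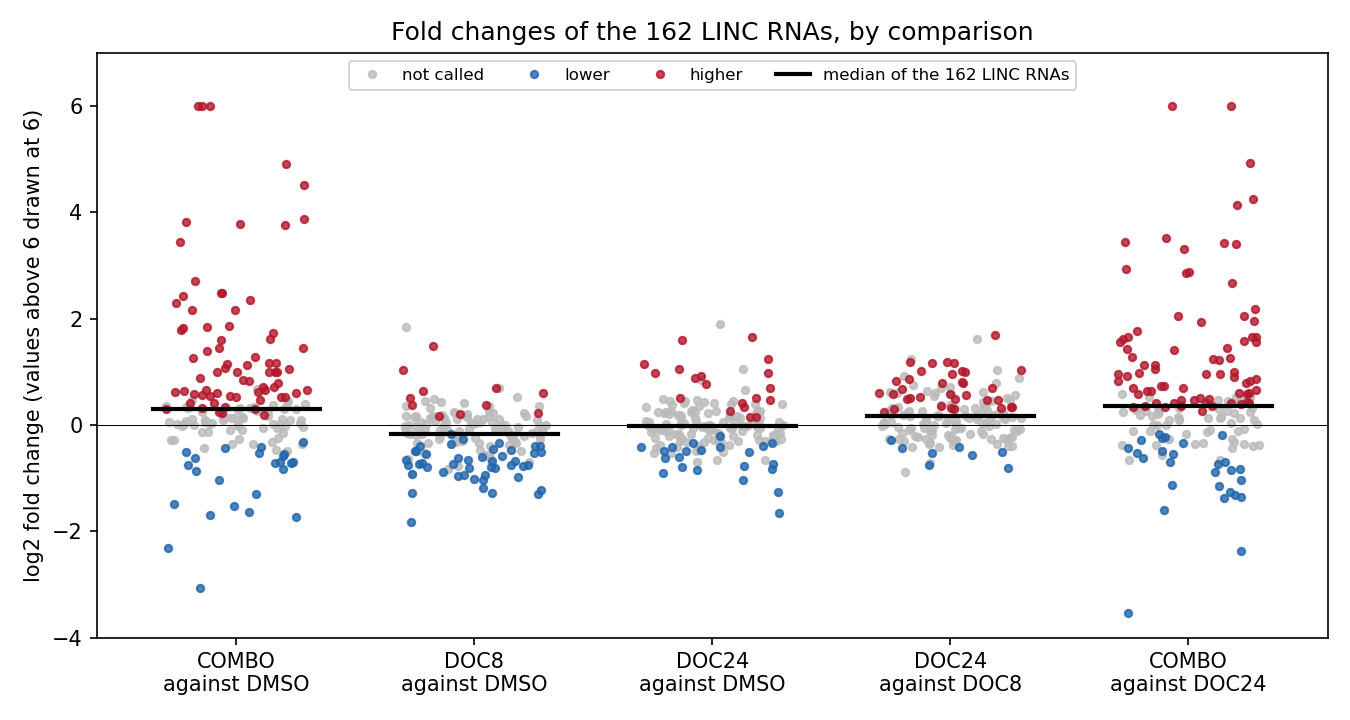
Log2 fold changes of the 162 LINC RNAs in 5 comparisons, each point a gene, coloured by the edgeR call, with a bar at the median and values above 6 drawn at 6. The medians are 0.31 for COMBO against DMSO, -0.17 for DOC8 against DMSO, -0.03 for DOC24 against DMSO, 0.17 for DOC24 against DOC8 and 0.35 for COMBO against DOC24.

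The LINC RNA with the largest difference was detected in COMBO alone. LINC02582 (chr18:73324941-73349878) had 395.9, 362.5 and 424.1 normalised counts in COMBO, and was at 0 in all 9 libraries of DOC8, DOC24 and DMSO. These were 1099 raw counts in COMBO and none in DMSO, at least 425-fold higher against a floor of 3 counts over the DMSO group. LINC01029, also on chromosome 18 (chr18:77971294-77993722), had 190.7, 163.3 and 183.5 normalised counts in COMBO and at most 1.038 in any other library. Its ratio of COMBO to DMSO was 290, with a 95% counting interval of 79.8 to 2400, from 500 raw counts in COMBO and 2 in DMSO. Intervals and floors of this kind pool the libraries of a group and cover counting error only, leaving out the spread between libraries. Over all genes tested, pairs of libraries of a group had a chi-square per degree of freedom of 3.146 to 15.31, above counting error alone. PCR copies were not marked either.

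LINC01088 (chr4:78971748-79308798), whose window is shown above, had 54.2, 53.3 and 39.6 normalised counts in COMBO, at most 2.076 in DOC8, at most 2.885 in DOC24 and at most 0.7735 in DMSO. The ratio of COMBO to DMSO was 159, with a counting interval of 28.0 to 6320. LINC01602 had 81.3, 57.7 and 67.0 in COMBO, 4.04, 2.076 and 0 in DOC8, 4.02, 6.219 and 9.377 in DOC24, and 2.32, 2.138 and 1.988 in DMSO. LINC00839 and LINC02474 belong here too. LINC00839 had 97.9, 81.6 and 60.4 in COMBO and at most 7.954 in DMSO, and LINC02474 had 59.4, 100.1 and 74.7 in COMBO and at most 6.413 in DMSO. LINC00702 (65.6, 62.1 and 44.0 in COMBO and at most 23.98 in DMSO) and LINC00707 (78.1, 66.4 and 82.4 in COMBO and at most 12.92 in DMSO) were detected in every library. All of these reached 30 in COMBO only.

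Among genes expressed in every group, LINC00323 stood out, and it was named after its values were seen. LINC00323 (chr21:41141493-41148133) had 892.8, 815.3 and 951.5 normalised counts in COMBO, 64.6, 67.5 and 62.7 in DOC8, 78.4, 72.6 and 92.3 in DOC24, and 86.6, 75.9 and 79.5 in DMSO. The log2 fold change of COMBO against DMSO was 3.45 ± 0.11 (edgeR adjusted p = 1.09e-17), and neither docetaxel group passed the test (0.0619 at 8 h and 0.924 at 24 h). LINC02541, also named after its values were seen, had 504.2, 465.9 and 463.7 in COMBO, 178.8, 203.4 and 183.3 in DOC8, 124.6, 151.3 and 145.0 in DOC24, and 177.9, 220.2 and 195.9 in DMSO. It was higher in COMBO (log2 fold change 1.28 ± 0.10, edgeR adjusted p = 1.86e-10) and lower in DOC24 (-0.48 ± 0.11, 0.00126).

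LINC00467, which has been reported to encode a peptide of mitochondria in colorectal cancer, and LINC01234 also rose in COMBO. LINC00467 had 404.2, 362.5 and 365.9 normalised counts in COMBO and 173.3, 168.9 and 161.1 in DMSO, a log2 fold change of 1.17 ± 0.10 (edgeR adjusted p = 7.67e-10). LINC01234 had 282.3, 252.5 and 262.6 in COMBO and 105.2, 141.1 and 139.2 in DMSO, a log2 fold change of 1.06 ± 0.13 (1.55e-07). Smaller rises in COMBO were seen for LINC00342 (0.71 ± 0.21, adjusted p = 0.00484), LINC00847 (0.34 ± 0.10, 0.00626), LINC00909 (0.24 ± 0.10, 0.0399) and LINC00963 (0.24 ± 0.07, 0.00341). LINC01138, LINC00857, LINC00205 and LINC00339 did not pass (adjusted p = 0.122, 0.68, 0.906 and 0.443).

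The largest fall in COMBO was that of LINC01447 (chr7:47621939-47629893). It had 17.7, 8.709 and 4.395 normalised counts in COMBO, 66.7, 52.9 and 39.8 in DOC8, 114.6, 110.9 and 134.9 in DOC24, and 85.1, 80.2 and 99.4 in DMSO. The log2 fold change was -3.07 ± 0.29 in COMBO against DMSO (edgeR adjusted p = 3.51e-09). LINC02167 had 25.0, 32.7 and 22.0 in COMBO, 143.4, 138.0 and 170.1 in DOC8, 153.8, 116.1 and 142.1 in DOC24, and 126.9, 136.8 and 132.2 in DMSO. Its log2 fold change in COMBO against DMSO was -2.31 ± 0.18 (adjusted p = 1.83e-10). DOC24 overlapped DMSO, and DOC8 lay just above it without passing the test (0.312). Its exons overlap 3 pseudogenes of 5S ribosomal RNA.

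LINC02015 fell in all 3 treatments. It had 30.2, 57.7 and 49.5 normalised counts in COMBO, 106.0, 110.0 and 86.8 in DOC8, 88.5, 87.1 and 77.9 in DOC24, and 143.1, 167.8 and 146.1 in DMSO. The log2 fold changes against DMSO were -1.73 ± 0.18 in COMBO (edgeR adjusted p = 1.96e-08), -0.59 ± 0.16 in DOC8 (0.00411) and -0.85 ± 0.16 in DOC24 (0.000198), all against the same 3 DMSO libraries. LINC00968, which reached 30 in DMSO only, had 14.6, 11.97 and 9.889 in COMBO and 40.2, 48.1 and 30.8 in DMSO. LINC02515 and LINC01819 were lower in COMBO as well. LINC02515 had 42.7, 45.7 and 45.1 in COMBO and 138.5, 144.3 and 133.2 in DMSO (log2 fold change -1.64 ± 0.15, edgeR adjusted p = 3.26e-09). LINC01819, named after its values were seen, had 224.0, 191.6 and 195.6 in COMBO and 602.5, 595.4 and 565.7 in DMSO (-1.53 ± 0.09, 2.73e-12). LINC01089 fell by 0.52 ± 0.19 on the log2 scale (0.0235).

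**Figure D3:**
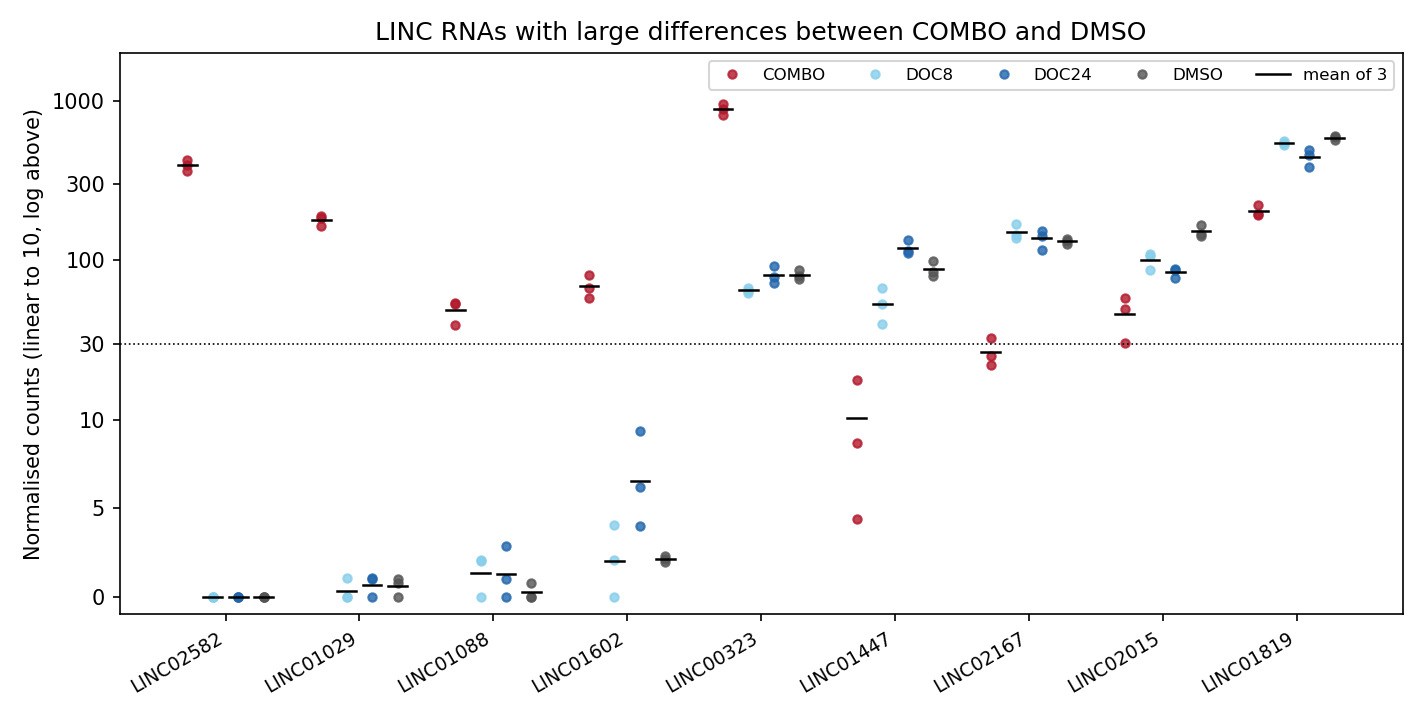
Normalised counts (linear to 10, log above) of 9 LINC RNAs with large differences between COMBO and DMSO, with 1 point per library, a bar at the mean and a dotted line at 30. The COMBO libraries of LINC02582 lie between 362.5 and 424.1 with all others at 0, and those of LINC01447 lie between 4.395 and 17.7, below all others.

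In DOC8 against DMSO the LINC RNAs leaned the other way: 11 were higher and 46 lower, against 22.5% and 24.8% of all genes, with medians of -0.17 for the LINC RNAs and -0.02 for all genes. Of the 100 at 30 or more in every group, 8 were higher and 31 lower, against 27.7% and 29.8% of the 13380 genes that reached the same minimum. Those genes share this minimum only and were not matched for level. With library totals as scaling, which shifts the median of all genes to -0.18, 5 were higher and 60 lower and the LINC median was -0.32, so the share of higher among called genes was 19.3% with TMM and 7.69% with library totals. A 2-fold difference was seen for 2 that were higher and 8 that were lower, against 1.33% and 2.53% of all genes, but for 0 and 1 of the 100 (0.463% and 1.06% of the 13380 genes).

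The largest of the called rises at 8 h was that of LINC00431 (chr13:110965704-110990579). It had 138.6, 167.6 and 140.6 normalised counts in COMBO, 70.7, 96.5 and 68.8 in DOC8, 51.3, 51.8 and 60.6 in DOC24, and 20.1, 28.9 and 35.8 in DMSO. No 2 groups overlapped. Against DMSO the log2 fold change was 2.42 ± 0.20 in COMBO, 1.496 ± 0.22 in DOC8 and 0.99 ± 0.22 in DOC24. LINC00346, on the same chromosome (chr13:110863987-110870251), had 85.4, 77.3 and 81.3 in COMBO, 38.4, 25.9 and 47.0 in DOC8, 38.2, 43.5 and 54.1 in DOC24, and 17.8, 26.7 and 26.8 in DMSO. Its log2 fold change against DMSO was 1.79 ± 0.23 in COMBO, 0.64 ± 0.26 in DOC8, which overlapped DMSO, and 0.97 ± 0.25 in DOC24. The mean of both genes in DMSO was below 30, so they were chosen through the treated groups, and these fold changes are given as a description. The coding gene nearest to both is ANKRD10.

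LINC00294 had 761.6, 674.9 and 727.4 normalised counts in COMBO, 1006, 913.3 and 943.2 in DOC8, 553.8, 521.3 and 593.7 in DOC24, and 578.6, 555.8 and 619.4 in DMSO. It rose at 8 h by 0.70 ± 0.07 (edgeR adjusted p = 3.59e-08), and DOC24 overlapped DMSO. Its exons overlap CSTF3, a cleavage factor of mRNA 3′ ends, so the count may hold reads of both. LINC00707 had 22.2, 18.7 and 31.4 in DOC8 and 11.6, 9.62 and 12.9 in DMSO. LINC01355 had 39.4, 52.9 and 57.9 in DOC8 and 27.1, 35.3 and 36.8 in DMSO. The LINC01355 value of 0.60 ± 0.23 (adjusted p = 0.0384) lost the call with library totals (0.123), without DOC8 replicate B (0.101) or C (0.142) and without DMSO replicate A (0.146).

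The falls at 8 h included LINC00639, which reached 30 in DMSO only, with 7.07, 16.6 and 15.7 normalised counts in DOC8 and 51.0, 44.9 and 40.8 in DMSO. LINC01085, which reached 30 in COMBO only, had 13.1, 6.227 and 12.1 in DOC8 and 24.0, 24.6 and 27.8 in DMSO. LINC00324 (chr17:8220642-8224043) had 117.7, 132.8 and 131.9 in COMBO, 34.3, 16.6 and 22.9 in DOC8, 53.3, 102.6 and 83.7 in DOC24, and 76.6, 48.1 and 54.7 in DMSO. It was higher in COMBO (log2 fold change 1.07 ± 0.21, edgeR adjusted p = 0.000156) and lower in DOC8 (-1.30 ± 0.27, 0.000424), while DOC24 overlapped DMSO. Its nearest coding neighbour, the mitotic kinase gene AURKB, rose by 0.91 ± 0.06 in DOC8 (4.42e-11), the opposite direction.

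LINC01132 had 51.5, 48.8 and 55.5 normalised counts in DOC8, 76.4, 78.8 and 64.2 in DOC24, and 115.2, 129.3 and 132.2 in DMSO. Its log2 fold change was -1.28 ± 0.17 at 8 h (edgeR adjusted p = 2.54e-06) and -0.78 ± 0.16 at 24 h (0.000474). LINC00963, which has been described in castration-resistant prostate cancer, had 567.6, 517.9 and 594.6 in DOC8, 646.3, 623.9 and 699.0 in DOC24, and 908.8, 892.5 and 934.6 in DMSO. Both docetaxel groups lay below DMSO, with log2 fold changes of -0.71 ± 0.07 at 8 h (1.91e-08) and -0.47 ± 0.07 at 24 h (7.89e-06). LINC00205 (-0.62 ± 0.08, 2e-06), LINC00847 (-0.49 ± 0.11, 0.000781) and LINC01138 (-0.92 ± 0.21, 0.000973) fell at 8 h as well.

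In DOC24 against DMSO, 19 LINC RNAs were higher and 22 lower, against 20.2% and 22.7% of all genes, and the median was -0.03. The share of LINC RNAs past the test was below that of all genes in both directions. Of the 100 at 30 or more in every group, 10 were higher and 18 lower, against 23.1% and 28.8% of the 13380 genes. Of the LINC RNAs, 109 had a mean below 100, where the spread between libraries was wider and a difference is harder to call. Neither all genes nor the 13380 were matched to the LINC RNAs for level. The part of level in these lower shares was not tested. A 2-fold difference was seen for 5 that were higher and 3 that were lower, against 2.23% and 0.861% of all genes, and none of these is among the 100.

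The 4 largest rises at 24 h were of genes at low levels, one of them LINC01602, whose values stand above. LINC02595, which reached 30 in DOC24 only, had 38.2, 40.4 and 33.2 normalised counts in DOC24, 16.2, 10.4 and 24.1 in DOC8, and 12.4, 17.1 and 5.965 in DMSO. LINC00115 had 56.3, 67.4 and 33.9 in DOC24 and 18.6, 13.9 and 32.8 in DMSO (log2 fold change 1.25 ± 0.30). It passed the level of 30 only through the docetaxel groups, so this is a description. The lowest DOC24 library of LINC00115 lay just above the highest DMSO library, and its exons overlap LINC01128. LINC02019, which reached 30 in COMBO only, had 28.1, 17.6 and 33.9 in DOC24 and 16.2, 10.7 and 8.948 in DMSO.

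The falls at 24 h included LINC01547 (chr21:44932814-44939913). It had 389.6, 456.1 and 378.0 normalised counts in COMBO, 324.2, 288.5 and 316.0 in DOC8, 214.1, 229.1 and 199.1 in DOC24, and 379.8, 460.7 and 369.8 in DMSO. DOC24 was below DOC8 and DOC8 below DMSO, with log2 fold changes against DMSO of -0.39 ± 0.10 in DOC8 (edgeR adjusted p = 0.00266) and -0.91 ± 0.10 in DOC24 (3.47e-07), and COMBO overlapped DMSO. LINC01963 had the same order, with 368.6, 329.0 and 314.8 in DOC8, 213.1, 215.6 and 246.7 in DOC24, and 376.7, 407.3 and 424.5 in DMSO (-0.26 ± 0.09 at 8 h, 0.0194; -0.82 ± 0.09 at 24 h, 2.77e-07). LINC01521 had 33.3, 34.2 and 31.4 in DOC8, 34.2, 28.0 and 15.2 in DOC24, and 65.8, 59.9 and 54.7 in DMSO. Its log2 fold change was -0.87 ± 0.23 at 8 h (0.00356) and -1.26 ± 0.24 at 24 h (0.000172), and the 2 docetaxel groups overlapped.

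Set directly against DOC8, DOC24 had 35 LINC RNAs higher and 8 lower, against 16.6% and 18.3% of all genes, with medians of 0.17 for the LINC RNAs and 0.01 for all genes. A 2-fold difference was seen for 8 that were higher and 0 that were lower, against 2.48% and 0.551% of all genes, and none of these is among the 100 at 30 or more in every group. Of the 100 at 30 or more in every group, 25 were higher and 7 lower, against 18.3% and 23.6% of the 13380 genes. With library totals, which shift the median of all genes to 0.14, 56 were higher and 5 lower, so the share of higher among called genes was 81.4% with TMM and 91.8% with library totals. This comparison shares the DOC8 libraries with DOC8 against DMSO. The largest rises were LINC00324 (1.70 ± 0.26, edgeR adjusted p = 2.39e-05), LINC01447 (1.18 ± 0.21, 9.75e-05) and LINC01226 (1.18 ± 0.24, 0.000548). LINC01226 had 47.2, 33.2 and 42.6 normalised counts in DOC24 and 19.2, 19.7 and 15.7 in DOC8.

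LINC01133 was higher in DOC24 than in DOC8 by 0.80 ± 0.07 (edgeR adjusted p = 7.15e-09), the smallest p of the 8 most abundant in this comparison. LINC01138, which has been described to bind the arginine methyltransferase PRMT5 in liver cancer, had 58.3, 69.4 and 74.3 in DOC24 and 40.4, 27.0 and 37.4 in DOC8 (0.97 ± 0.21, 0.000849). LINC02515 was the largest fall past the test, with 110.6, 134.7 and 96.7 in DOC24 and 200.0, 206.5 and 190.6 in DOC8 (-0.80 ± 0.13, 3.09e-05). LINC00294 (-0.76 ± 0.07, 1.78e-08) and LINC01963 (-0.57 ± 0.09, 4.86e-05) followed.

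**Figure D4:**
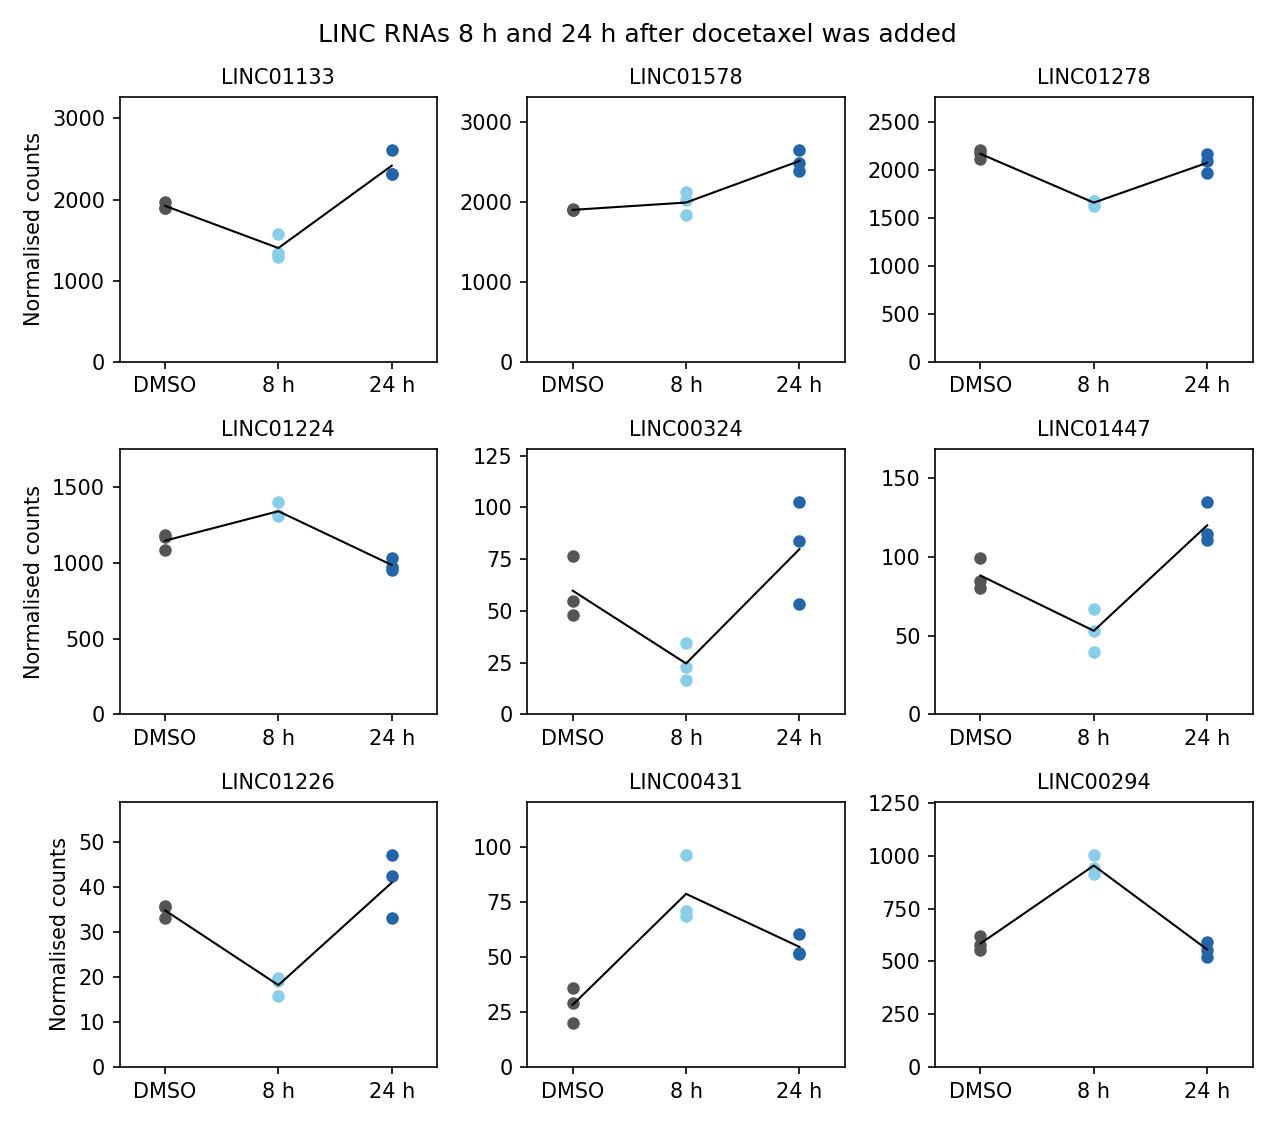
Normalised counts of 9 LINC RNAs in DMSO and 8 h and 24 h after docetaxel was added, with 1 point per library and a line through the means. LINC01133, LINC01278, LINC00324, LINC01447 and LINC01226 are lowest at 8 h, while LINC01224, LINC00431 and LINC00294 are highest at 8 h.

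COMBO and DOC24 share the label of 24 h but were not matched otherwise. Cells of the COMBO experiment had been in tazemetostat or DMSO since 5 days before. COMBO was in 2% FBS on 6 cm plates, and DOC24 was on 10 cm plates. These differences cannot be told apart from the drugs. COMBO had 76 LINC RNAs higher and 27 lower than DOC24, against 32.1% and 31.7% of all genes. A 2-fold difference was seen for 37 that were higher and 10 that were lower, against 11.9% and 3.17% of all genes, but for 7 and 5 of the 100 at 30 or more in every group (5.64% and 1.56% of the 13380 genes). Of the 100 at 30 or more in every group, 41 were higher and 20 lower, against 30.9% and 38.3% of the 13380 genes. LINC02582 was at least 440-fold higher, and LINC01029 had a ratio of 300, with a counting interval of 82.6 to 2480. The largest falls were LINC01447 (-3.53 ± 0.28, edgeR adjusted p = 1.71e-10) and LINC02167 (-2.37 ± 0.18, 9.52e-11). LINC02595, chosen through DOC24, had 9.376, 18.5 and 8.790 normalised counts in COMBO and 38.2, 40.4 and 33.2 in DOC24. LINC01547 and LINC01963, which fell in DOC24, were higher in COMBO than in DOC24 by 0.93 ± 0.10 (4.52e-08) and 0.95 ± 0.09 (4.46e-09). Over the 3 comparisons with DMSO, 34 of the 162 passed the test in none. The share of all genes that passed in none was not counted, so this number has no background to be set against.

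Nearest coding genes were tested for 127 of the 162. They were counted per LINC RNA, so a coding gene nearest to several counts more than once. ANKRD10, higher in COMBO and in DOC24, is counted for both LINC00431 and LINC00346. Of 56 LINC RNAs higher in COMBO than in DMSO, 19 had a neighbour that was higher and 20 one that was lower, close to the 31.4% of all genes called each way. Of 20 that were lower, 4 had a higher and 12 a lower neighbour. Of 37 lower in DOC8, 9 had a higher and 16 a lower neighbour, against 22.5% and 24.8% of all genes. In DOC24, 13 that were higher had 3 higher and 4 lower neighbours, and 19 that were lower had 4 and 8, against 20.2% and 22.7% of all genes. Within 10 kb the numbers were small, with 10 higher in COMBO, of which 2 had a higher and 3 a lower neighbour, and 4 lower in COMBO, of which 3 had a lower one.

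Pairs that start close together moved in like and in unlike directions. LINC01184 starts 594 bases from SLC12A2, a sodium, potassium and chloride cotransporter gene. SLC12A2 had 6555 ± 321 normalised counts in COMBO, 6961 ± 549 in DOC8, 7501 ± 326 in DOC24 and 12240 ± 716 in DMSO (SD, n = 3 each), with log2 fold changes against DMSO of -0.90 ± 0.06 in COMBO, -0.82 ± 0.06 in DOC8 and -0.70 ± 0.06 in DOC24 (SE; edgeR adjusted p = 1.1e-11, 3.26e-10 and 8.76e-09). LINC01184 itself stayed within 0.18 of DMSO in all 3. LINC01547 starts 97 bases from FAM207A, which rose in DOC8 by 0.56 ± 0.05 (1.65e-08) and in DOC24 by 0.15 ± 0.05 (0.0305) where LINC01547 fell. LINC01521 starts 545 bases from the transcription factor gene PATZ1, and both fell, PATZ1 with log2 fold changes of -0.20 ± 0.05 in DOC8 (0.00199) and -0.32 ± 0.05 in DOC24 (2.95e-05).

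The pairs in this paragraph were picked after their values were seen. LINC01089 starts 274 bases from SETD1B, a histone H3 lysine methyltransferase gene, and SETD1B fell in COMBO (log2 fold change -0.51 ± 0.08, edgeR adjusted p = 3.64e-06) as LINC01089 did. LINC00649 starts 446 bases from ATP5PO, a subunit gene of ATP synthase, and shares exon bases with it. LINC00649 had 286.8, 292.7 and 331.7 normalised counts in DOC8, 337.7, 346.2 and 305.8 in DOC24, and 483.4, 520.6 and 521.0 in DMSO. Its log2 fold change was -0.75 ± 0.09 in DOC8 (edgeR adjusted p = 5.45e-07) and -0.62 ± 0.09 in DOC24 (7.89e-06), while ATP5PO rose by 0.64 ± 0.10 (1.04e-05) and 0.53 ± 0.10 (0.000126).

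A list of 24 transcripts under other names was drawn up as renamed LINC transcripts, and 15 of them were tested. The list is mixed, with NORAD and CYTOR beside microRNA host genes such as MIR22HG and genes such as SMIM30. Whether each once carried a LINC symbol was not checked. In COMBO 6 were higher and 1 lower (median log2 fold change 0.13), in DOC8 7 were higher and 3 lower (0.27), in DOC24 5 were higher and 1 lower (0.26), in DOC24 against DOC8 2 were higher and 3 lower, and in COMBO against DOC24 4 were higher and 5 lower. The shares of all genes called higher and lower were 31.4% and 31.4% in COMBO, 22.5% and 24.8% in DOC8, 20.2% and 22.7% in DOC24, 16.6% and 18.3% in DOC24 against DOC8, and 32.1% and 31.7% in COMBO against DOC24. CYTOR, known as a cytoskeleton regulator, rose by 0.79 ± 0.07 in COMBO (edgeR adjusted p = 5.03e-10), 0.27 ± 0.07 in DOC8 (0.00216) and 0.26 ± 0.07 in DOC24 (0.00279). NORAD, which binds Pumilio proteins, had log2 fold changes of -0.03 ± 0.07 in COMBO (0.688), -0.28 ± 0.07 in DOC8 (0.00161) and -0.45 ± 0.07 in DOC24 (1.78e-05).

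Of 40 well-known long non-coding RNAs under other names, 24 were tested. In COMBO 11 were higher and 6 lower (median 0.22), in DOC8 6 and 6 (-0.01), in DOC24 10 and 3 (0.17), in DOC24 against DOC8 9 and 4, and in COMBO against DOC24 9 and 8. Beside the shares of all genes just given, the 6 and 6 in DOC8 were near the background. UCA1 had 2358 ± 55.3 normalised counts in COMBO and 755.7 ± 50.6 in DMSO (SD, n = 3 each), and TINCR, which is induced in epidermal differentiation, had 3334 ± 115 in COMBO and 1338 ± 75.0 in DMSO. Their log2 fold changes were 1.64 ± 0.06 and 1.32 ± 0.05 (SE; edgeR adjusted p = 3.57e-16 and 1.52e-15). MALAT1, a nuclear speckle RNA, rose against DMSO in all 3 treatments. The log2 fold change was 0.77 ± 0.14 in COMBO (edgeR adjusted p = 3.22e-05), 0.77 ± 0.14 in DOC8 (6.44e-05) and 1.56 ± 0.14 in DOC24 (1.09e-08). Its SD between DOC24 libraries was 1656 around a mean of 5269.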

How the data were processed

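RNA counts from 12 libraries of MDA-MB-468 cells were used, 3 in each of the COMBO, DOC8, DOC24 and DMSO groups, as the labels give them. The authors deposited raw counts, whole numbers for each gene and library. Per the submitters' processing notes, which state no roles, fastp, HISAT2 2.0.5, DESeq2 and the build hg38 were used. What counted the reads, on which annotation and with which strand setting is not given in the sources used here. The deposited normalised counts are a signal in which the authors divided the counts by 1 factor per library, from 0.829 to 1.386 (checked on every row to a relative tolerance of 1e-06). They chose the 162 LINC RNAs and give the levels. LINC01297 occurs more than once, and its first row was used.

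Fold changes come from the raw counts. edgeR 4.0.16 in R 4.3.3 fitted 17780 genes kept by filterByExpr with a minimum count of 10, which kept all 162, in all 12 libraries with group means, TMM factors of 0.917 to 1.047 and 8 residual degrees of freedom. Its two-sided quasi-likelihood test was run for 5 comparisons, with Benjamini-Hochberg adjustment over all genes and a threshold of 0.05. SE is the log2 fold change divided by the root of the test's F. The procedure was tested on simulated counts. Alternatives were library totals, the deposited size factors, DESeq2 1.42.0, no filter on low counts, 2 groups only, a replicate block, each library left out, and other rules for the genes counted.

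Named genes were, for every treatment against DMSO, the 4 largest rises and 4 largest falls past the threshold without overlap between libraries, and 3 of each in the other comparisons. To these were added the 8 most abundant, genes from a list of 43 of which 22 are among the 162, and those at the threshold. Genes outside this rule are said to be named after their values were seen. The genes and lists were chosen with earlier results of these data known.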

Additional observations from a re-analysis of the deposited data

Results flagged for a closer look

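Of the 35 LINC RNAs higher in DOC24 than in DOC8 and the 8 lower, those named by the rule for named genes are given here. They differed between 24 h and 8 h of docetaxel past an edgeR adjusted p of 0.05, so that their differences from the shared DMSO libraries were not the same at both times; values are log2 fold changes of DOC24 against DOC8. Those higher in DOC24 were LINC00324 (1.70), LINC01447 (1.18), LINC01226 (1.18), LINC01138 (0.97), LINC01133 (0.80), LINC01132 (0.50), LINC00857 (0.35), LINC01578 (0.35), LINC01278 (0.34), LINC01184 (0.33), LINC00847 (0.32), LINC00205 (0.29) and LINC00963 (0.25). Those lower in DOC24 were LINC01224 (-0.43), LINC00431 (-0.51), LINC01547 (-0.52), LINC01963 (-0.57), LINC00294 (-0.76) and LINC02515 (-0.80). LINC00639 (1.17), which reached the level of 30 only in DMSO, and LINC02595 (1.16), which reached it only in DOC24, are given as a description without a test. LINC00324 and LINC01226 had means below 30 in DOC8 and passed the level through other groups, DOC24 among them. That choice bears on their differences here. No vehicle group was labelled for 8 h.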

How the results depend on the processing

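Counts of LINC RNAs past the threshold stayed within 1.5 times in 128 of 140 alternatives. With library totals, DOC8 against DMSO had 5 higher, and DOC24 against DOC8 had 56 higher and 5 lower; the shift of all genes' median in the report belongs to this scaling. Restricted to LINC genes that overlap no other gene, a smaller set by construction, COMBO against DMSO had 35 higher and 12 lower. DOC8 against DMSO had 6 higher and 20 lower, and DOC24 against DMSO 8 higher and 16 lower. DOC24 against DOC8 had 16 higher and 6 lower, and COMBO against DOC24 40 higher and 16 lower. This set leaves out the 88 of 160 matched genes that overlap another gene, and the unmatched ones, so its counts are smaller for that reason. The shares of all genes higher and lower were 31.4% and 31.4% in COMBO against DMSO and 22.5% and 24.8% in DOC8 against DMSO. They were 20.2% and 22.7% in DOC24 against DMSO, 16.6% and 18.3% in DOC24 against DOC8, and 32.1% and 31.7% in COMBO against DOC24. Leaving out each library in turn, the number higher in DOC8 than in DMSO lay between 7, without DOC8 replicate C, and 11. DESeq2 gave 69 higher and 22 lower in COMBO against DMSO. No pairing of the libraries by letter was detected. In their deviations from group means, the 18 same-letter pairs correlated at -0.134 to 0.143 and others at -0.127 to 0.101. With the letter as a replicate block COMBO against DMSO had 72 higher and 23 lower. These values cannot show whether libraries of the same letter were prepared together.

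Of 623 values of named LINC RNAs under alternatives, 587 kept their call, 36 lost it and 0 turned direction. Besides the losses named in the report, LINC01355 in DOC8 lost its call with DESeq2 (adjusted p = 0.0525) and with no filter on low counts (0.0593), LINC00665 in DOC24 with no filter (0.0513), and LINC01184 in DOC24 with DESeq2 (0.0573), no filter (0.142), library totals (0.084) and the deposited size factors (0.0598). The remaining losses were of further left-out libraries for LINC01184 and of LINC00707, LINC01602, LINC02019 and LINC00968, genes chosen through 1 group. The cause was not tested. Below a mean of 100, a median coefficient of variation of 14.5 to 19.3% limits what 3 libraries can show.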
